A study of Mus musculus with 8 samples.

Results

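The identity of a limb muscle, and the mix of fast and slow fibres within it, is set in part by transcription factors and cofactors, and 9 of these genes are described here in mouse gastrocnemius (GAS) muscle after knockdown of MYTHO. The genes were *Tbx1*, *Tbx15*, *Six4*, *Eya1*, *Eya4*, *Sox6*, *Prox1*, *Maf* and *Vgll2*. They were taken by symbol from a table of 22206 probe sets naming 22664 different symbols. Where several probe sets named a gene, the rule kept the one with the highest mean signal, but each of the 9 was named by 1 probe set, so no measured value decided which was used.

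All muscles came from male wild-type C57/Bl6j mice aged 22 weeks. The mice had received an adeno-associated virus (AAV) of serotype 1 in the muscle at about 10 weeks of age, 3 months before the muscle was taken. In the MYTHO-KD group (4 arrays) the virus carried AAV sh-RNA MYTHO, a short hairpin against the transcript of *D230025D16Rik*, the gene of MYTHO. In the scramble group (4 arrays) it carried AAV sh-RNA scrmb, a hairpin of scrambled sequence, and was given to the opposite leg. Both hairpins were driven by the U6 promoter, which is not restricted to muscle fibres, and every muscle in the comparison had been injected with virus. RNA was measured on Clariom S Mouse arrays. The table holds the authors' average and SD of each group on the log2 scale and no signals of single arrays, so whether single arrays of the groups overlapped cannot be read from it. A reading of spread is given instead by whether the intervals of average ± 1 SD of the groups overlapped.

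These genes belong to families with different tasks in muscle. T-box factors bind DNA through a shared domain: *Tbx1* is known for its part in forming the muscles of the head, and *Tbx15* for its expression in glycolytic limb fibres. Sine oculis homeobox proteins, of which *Six4* encodes a member, bind MEF3 sites in muscle genes and work with EYA coactivators, and the pair is known for driving the fast fibre programme. *Sox6* represses slow fibre genes in fast fibres, while *Prox1* is needed for the slow programme and is also the factor that defines lymphatic endothelium. *Maf* encodes a large MAF protein, a group known to act on the fast IIB myosin gene *Myh4*. *Vgll2* encodes a muscle cofactor that binds TEAD factors.

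The target of the knockdown, *D230025D16Rik*, averaged 7.71 (SD 0.66) in MYTHO-KD and 10.02 (SD 0.37) in scramble. This is a log2 difference of -2.31 (SE 0.304, moderated limma test with Benjamini-Hochberg adjustment, adjusted p = 0.0138), which leaves 20.2% of the scramble signal. All 8 markers of the skeletal muscle fibre were listed as expressed in both groups, as were 21222 of all 22206 probe sets. The scale ended at 19.93, and 16 probe sets, the fast myosin gene *Myh4* and skeletal actin gene *Acta1* among them, stood at that end in both groups, where no difference can be measured.

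*Tbx1* and *Vgll2* rose in MYTHO-KD muscle, and none of the other 7 genes passed the rule of the study's methods, a change of at least 2-fold with an unadjusted p under 0.05. The p-values used with that rule were computed here and are not the study's own. By that rule 2 of the 9 genes were higher, where 0.86% of all probe sets were called higher, and 0 were lower, where 0.257% were called lower (1.12% in either direction). After adjustment over all 22206 probe sets, *Tbx1* remained as the 1 gene under 0.05 (0.18% of all probe sets were called higher in that way, 0.0946% lower and 0.275% in either direction). At an unadjusted p under 0.05 with no demand on size, 2 genes were higher and 2 were lower, *Eya4* and *Maf*, against 6.48% and 5.52% of all probe sets (12% in either direction). Of these, *Eya4* had an unadjusted p above 0.05 under 3 alternatives of the test. These counts describe the 9 genes and are no support for anything beyond them.

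Leaving *Tbx1* and *Vgll2* aside, the other 7 genes all averaged lower in MYTHO-KD, with log2 differences between -0.72 and -0.06 and adjusted p between 0.265 and 0.967. The median over all 9 genes was -0.29, and over all probe sets it was -0.01. The 95% intervals of 5 of the 7 included 0. The SDs were larger in MYTHO-KD than in scramble for 7 of the 9 genes, with a median of 0.50 in MYTHO-KD and 0.28 in scramble. Over all probe sets the median SD was 0.27 in each group, and 48.1% had the larger SD in MYTHO-KD. A larger SD in MYTHO-KD was not particular to the 9 genes. Of 30 relatives of the same families, 20 had it (median SD 0.32 in MYTHO-KD and 0.20 in scramble). So did 65 of the 102 relatives, regulators and fibre genes listed below (0.29 and 0.24). All 9 genes were listed as expressed in both groups, as were 21222 of all 22206 probe sets.

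**Figure D1:**
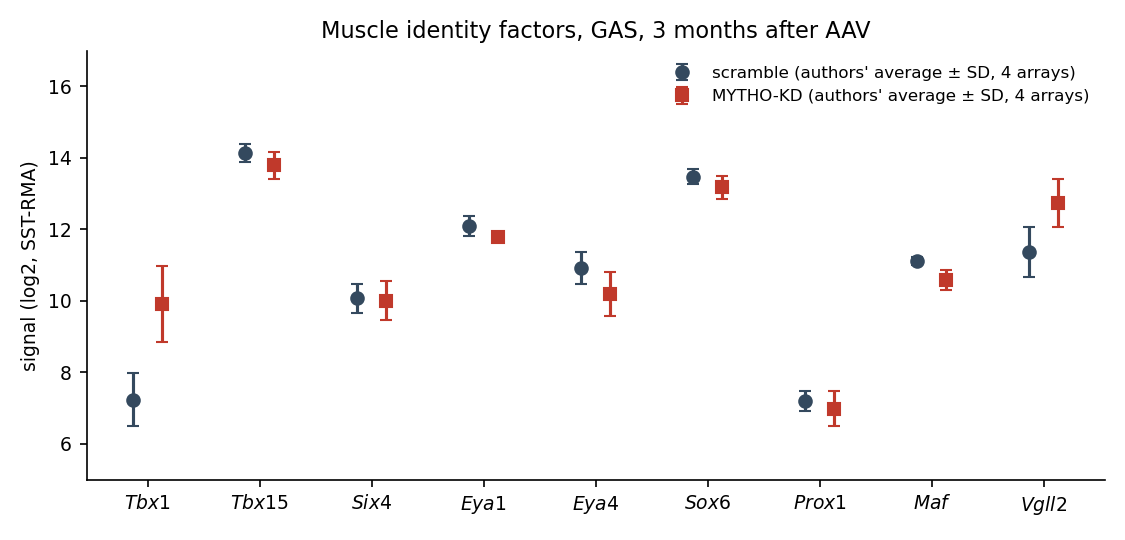
Signal of the 9 genes on the log2 scale (vertical axis, SST-RMA) in scramble (dark circles) and MYTHO-KD (red squares) muscles; points are the authors' averages and bars 1 SD, from 4 arrays a group. The intervals stand apart for *Tbx1* and *Maf*, those of *Vgll2* barely touch, and heights are not comparable between genes because each has a different probe set.

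**Figure D2:**
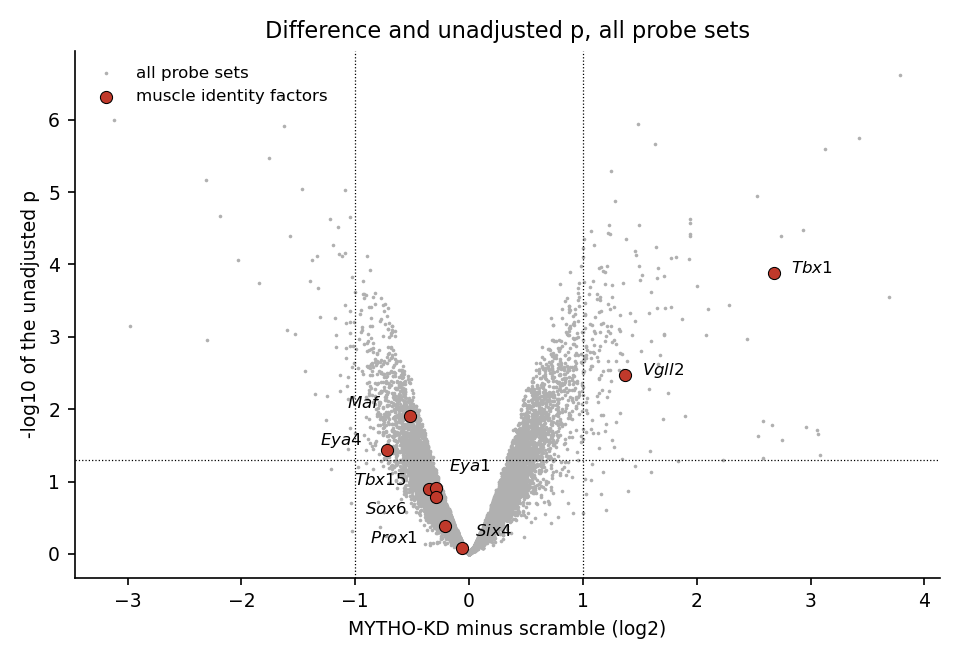
Log2 difference of MYTHO-KD minus scramble (horizontal axis) against the -log10 of the unadjusted p of the moderated limma test (vertical axis) over 22206 probe sets (grey), with the 9 genes in red. Dotted lines mark 2-fold and the 0.05 level. *Tbx1* and *Vgll2* lie in the upper right corner that the 2-fold rule takes in, *Maf* and *Eya4* lie above the level line without reaching 2-fold, and the other 5 lie below it.

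Of the T-box genes, *Tbx1* rose and *Tbx15* did not pass the test. *Tbx1* averaged 9.92 (SD 1.06) in MYTHO-KD and 7.24 (SD 0.75) in scramble. The interval of average ± 1 SD ran from 8.86 to 10.98 in MYTHO-KD and from 6.49 to 7.99 in scramble, so they did not overlap, a separation upward that 4.03% of all probe sets had (7.99% were apart in either direction). The log2 difference was 2.68 (SE 0.483, 95% interval 1.63 to 3.73), a 6.41-fold higher signal, with an unadjusted p of 1.32e-04 and an adjusted p of 0.0482 in the moderated limma test. *Tbx1* was also among the genes that varied most between muscles of the same group. Its pooled SD of 0.918 was at the 99.6th percentile of all probe sets, and without moderation of the variance the adjusted p was 0.285. In bulk muscle RNA, a change in the number of cells that express a gene and a change in RNA per cell cannot be told apart, and that holds for every gene below.

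*Tbx15* averaged 13.79 (SD 0.37) in MYTHO-KD and 14.14 (SD 0.26) in scramble. Its difference of -0.35 (SE 0.214, 95% interval -0.82 to 0.12, adjusted p = 0.567) was within the spread. The 7 T-box relatives measured beside them, among them the limb factors *Tbx4* and *Tbx5*, had a median difference of 0.07 and a range from -0.25 to 0.17. None was called by either rule. Those with the largest differences were *Tbx6* (4.85 in MYTHO-KD and 5.10 in scramble, adjusted p = 0.686) and the hindlimb factor *Tbx4* (7.96 and 7.79, adjusted p = 0.805), and the 95% interval of *Tbx4*, -0.26 to 0.60, excluded a 2-fold change. The probe set of *Tbx1* was annotated to 18581704 to 18590671 on the minus strand of chromosome 16, and that of *Tbx15* 99240381 to 99354260 on the plus strand of chromosome 3 (mm10).

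The stretches of 250 bases before the start of the genes that rose are shown here because they lie directly before the starts of *Tbx1* and *Vgll2* given in the array table. They come from RefSeq (GRCm38.p6), are written on the strand of the gene, and were searched on both strands for 6 motifs: MEF3 (TCAGGTT), the T-box core (AGGTGTG), SOX (ACAAAG), the core of the MAF recognition element (TGCTGA), TEAD (GGAATG) and an E-box (CAGCTG). Any match would be in capitals, and there is none in either.
*Tbx1*, chr16:18590672-18590921, minus strand: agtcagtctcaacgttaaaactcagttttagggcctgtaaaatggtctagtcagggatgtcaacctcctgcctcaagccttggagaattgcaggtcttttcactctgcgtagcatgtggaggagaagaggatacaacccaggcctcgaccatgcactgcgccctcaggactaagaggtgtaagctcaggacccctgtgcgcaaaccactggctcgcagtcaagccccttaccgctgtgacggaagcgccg
*Vgll2*, chr10:52022252-52022501, plus strand: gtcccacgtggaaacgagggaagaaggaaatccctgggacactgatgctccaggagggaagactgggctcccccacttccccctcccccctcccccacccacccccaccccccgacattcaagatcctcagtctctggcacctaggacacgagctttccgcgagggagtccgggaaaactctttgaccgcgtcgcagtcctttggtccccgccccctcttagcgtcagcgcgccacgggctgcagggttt
Of the 9 genes, 6 had entries, with 15 windows in all, and *Tbx15*, *Eya1* and *Maf* had none. Over all 32851 windows of mouse genes, 3.49% held the MEF3 letters, 5.1% the T-box core, 16.5% SOX, 16.1% the MAF core, 12.6% TEAD and 13.0% the E-box, on either strand. The absence of these letters says nothing about binding elsewhere at these genes. The *Tbx1* window shown had a GC content of 54.4% and that of *Vgll2* 64.0%, beside a median of 52.4% over all windows. *Tbx1* has a further start inside the gene, whose window (chr16:18588900-18589149) had a GC content of 67.2% and also held none of the motifs.

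*Vgll2* was the other gene that rose. It averaged 12.74 (SD 0.68) in MYTHO-KD and 11.37 (SD 0.70) in scramble. The intervals of average ± 1 SD were 12.06 to 13.42 and 10.67 to 12.07, so they only just overlapped. The log2 difference was 1.37 (SE 0.375, 95% interval 0.55 to 2.19), a 2.58-fold higher signal, with an unadjusted p of 0.00336. After adjustment over all probe sets p was 0.162, so *Vgll2* was called by the 2-fold rule and not by the adjusted p. Its pooled SD was at the 98.8th percentile, and the probe set was annotated to 52022502 to 52028471 on the plus strand of chromosome 10.

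None of the 7 VGLL and TEAD relatives was called by either rule, and their median difference was -0.03. *Tead1*, the TEAD gene best known in muscle, averaged 14.51 and 14.26 (difference 0.25, 95% interval -0.10 to 0.60, adjusted p = 0.585). *Tead3* was higher at 8.45 (SD 0.45) against 7.76 (SD 0.31), a difference of 0.69 with an adjusted p of 0.275. *Tead2* was lower at 4.94 (SD 0.22) against 5.44 (SD 0.13), a difference of -0.50 with an adjusted p of 0.258. *Vgll3*, a relative of *Vgll2* that also binds TEAD factors, averaged 8.70 and 8.85 (difference -0.15, 95% interval -0.52 to 0.22, adjusted p = 0.801). Whether *Vgll2* differed in its response from these genes was not tested.

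**Figure D3:**
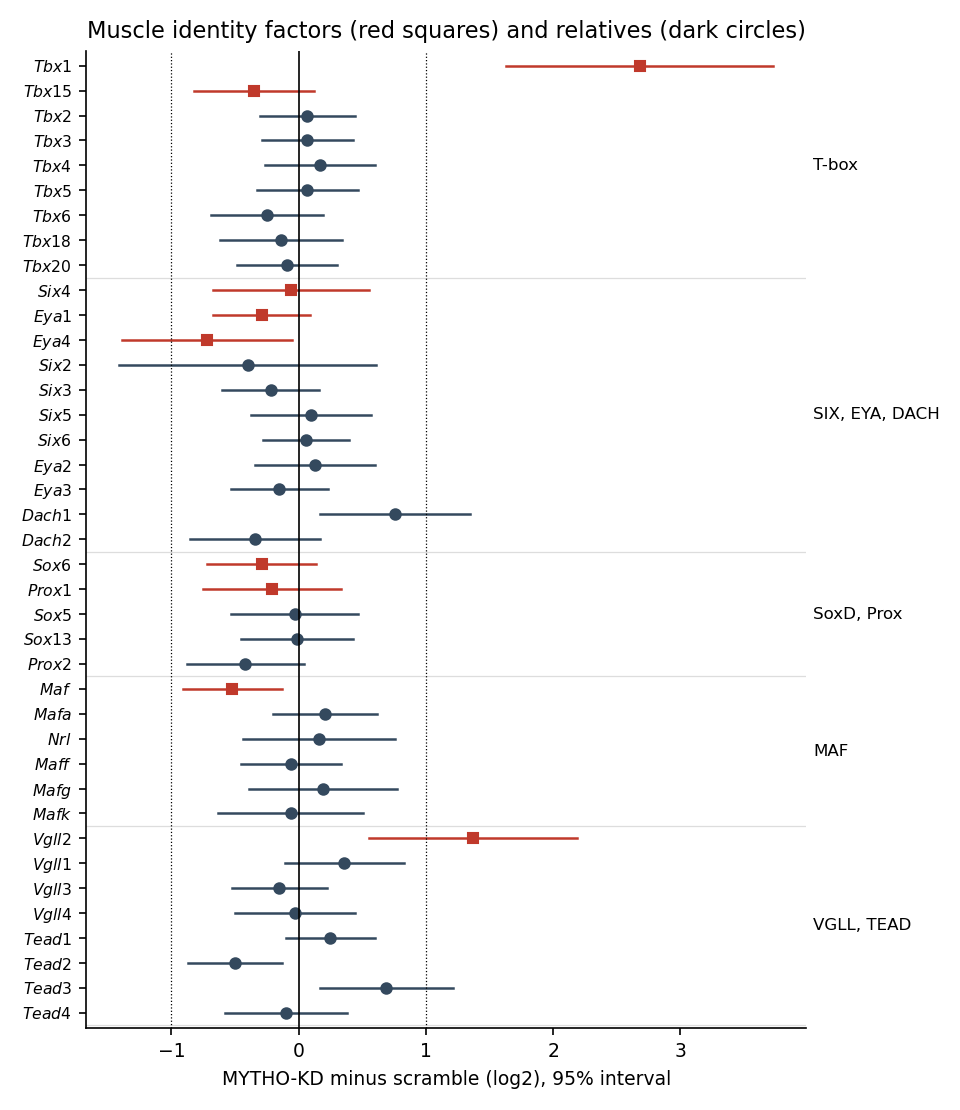
Log2 difference of MYTHO-KD minus scramble with its 95% interval (horizontal axis) for the 9 genes (red squares) and 30 relatives of the same families (dark circles); dotted lines mark 2-fold in each direction. *Tbx1* and *Vgll2* lie beyond 2-fold on the right, and the relatives lie between -0.50 and 0.76.

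*Six4* and the EYA genes all averaged lower in MYTHO-KD, and none passed the 2-fold rule. *Eya4*, a coactivator with phosphatase activity, averaged 10.20 (SD 0.62) in MYTHO-KD and 10.92 (SD 0.44) in scramble. The intervals of average ± 1 SD, 9.58 to 10.82 and 10.48 to 11.36, overlapped. Its signal was 39.3% below that of scramble, a difference of -0.72 (SE 0.305, 95% interval -1.39 to -0.05, unadjusted p = 0.0363, adjusted p = 0.379). The unadjusted p was 0.107 without moderation, 0.112 with unequal variances and 0.0686 with the larger SD of the groups. At 1.5-fold with an unadjusted p under 0.05, *Eya4* was the 1 gene of the 9 called lower, where 2.25% of all probe sets were, and *Tbx1* and *Vgll2* were called higher, where 3.54% were. *Eya1*, its paralog, averaged 11.80 (SD 0.05) and 12.09 (SD 0.28), a difference of -0.29 (SE 0.174, 95% interval -0.67 to 0.09, adjusted p = 0.559). *Eya1* was the gene with the tightest MYTHO-KD values among the 9. *Six4*, which binds the DNA in this partnership, averaged 10.01 (SD 0.54) and 10.07 (SD 0.41). Its difference of -0.06 (SE 0.279, 95% interval -0.67 to 0.55, adjusted p = 0.967) was the smallest of the 9, and the interval excluded a 2-fold change in either direction.

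Of 8 further genes related to *Six4* and the EYA genes, 4 were higher and 4 lower, with a median difference of -0.04. None was called by either rule. *Dach1*, a corepressor that joins sine oculis proteins, averaged 7.80 (SD 0.59) and 7.04 (SD 0.26), a difference of 0.76 (SE 0.269, adjusted p = 0.286). *Six2* averaged 6.68 and 7.08 with an SD of 1.23 in MYTHO-KD against 0.11 in scramble, so the MYTHO-KD muscles differed widely among themselves (95% interval -1.41 to 0.61, adjusted p = 0.804). The probe sets were annotated to 73099609 to 73114037 on chromosome 12 for *Six4*, 14168954 to 14310200 on chromosome 1 for *Eya1* and 23102963 to 23350786 on chromosome 10 for *Eya4*, all on the minus strand.

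The MEF3 letters that sine oculis proteins bind were found in 2 of the 15 windows, before starts of *Six4* and *Sox6*. Each is shown with its flanks, on the strand of the gene, with the match in capitals.
*Six4*, chr12:73113326-73113352, minus strand: gcctgggggaAACCTGAtcggccagat
*Sox6*, chr7:115824902-115824928, minus strand: tcacaaaaatTCAGGTTccatagacag
The *Six4* match reads on the opposite strand, at 97 to 91 bases before a start, and the *Sox6* match on the strand of the gene, at 208 to 202 bases before 1 of its inner starts. These matches are letters only, and no binding was measured.

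*Sox6* and *Prox1*, known for opposite parts in the slow fibre programme, both averaged slightly lower, each within the spread. *Sox6* averaged 13.18 (SD 0.32) in MYTHO-KD and 13.47 (SD 0.21) in scramble, a difference of -0.29 (SE 0.196, 95% interval -0.72 to 0.14, adjusted p = 0.615). *Prox1* averaged 6.99 (SD 0.50) and 7.20 (SD 0.27), a difference of -0.21 (SE 0.247, 95% interval -0.75 to 0.33, adjusted p = 0.808). Neither interval reached a 2-fold change. The SoxD relatives of *Sox6* had differences of -0.03 for *Sox5* (95% interval -0.53 to 0.47) and -0.01 for *Sox13* (-0.45 to 0.43). *Prox2*, the relative of *Prox1*, averaged 5.70 and 6.12 (difference -0.42, 95% interval -0.88 to 0.04, adjusted p = 0.462). The probe set of *Sox6* was annotated to 115470872 to 116038744 on chromosome 7 and that of *Prox1* 190118038 to 190170680 on chromosome 1, both on the minus strand.

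The window before the start of *Sox6* that equals the start in the array table is shown because SOX and TEAD letters, in capitals, follow each other in it with no base between, at 113 to 102 bases before that start.
*Sox6*, chr7:116038745-116038994, minus strand: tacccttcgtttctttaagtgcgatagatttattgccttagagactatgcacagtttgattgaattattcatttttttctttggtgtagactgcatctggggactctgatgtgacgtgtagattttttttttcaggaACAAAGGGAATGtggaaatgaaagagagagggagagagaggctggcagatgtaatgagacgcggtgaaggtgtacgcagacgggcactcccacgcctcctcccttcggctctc
Of the 15 windows, 6 held the SOX letters, and these belonged to *Sox6* and *Prox1*. The MAF core and the E-box were found at *Sox6* alone, and in 1 of its windows the matches to them share bases. *Sox6* contributed more windows than any other of the genes, and its windows are counted separately.

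As *Prox1* also marks lymphatic endothelium, markers of that cell type stand beside it. Of the 6 lymphatic markers, 3 were higher and 3 lower, with none called and a median difference of 0.15. Their summed signal on the log2 scale was 10.45 in MYTHO-KD and 10.44 in scramble. *Lyve1* had the largest difference, at 7.55 and 6.82 (0.73, adjusted p = 0.317), followed by *Pdpn* (8.55 and 8.21, adjusted p = 0.491). *Lyve1* is also expressed in some macrophages.

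Many of the slow fibre genes, on which *Sox6* and *Prox1* are known to act, differed widely between muscles of a group. RNA came from samples of the GAS, whose regions differ in fibre type according to the paper. Which region was sampled is not stated, and its part in this spread was not tested. Of 12 slow fibre genes, 6 were higher and 6 lower in MYTHO-KD, with a median difference of 0.01. Their median SD was 2.04 in MYTHO-KD (lowest 0.17, highest 3.67) and 0.74 in scramble (lowest 0.17, highest 1.43), and the SD was larger in MYTHO-KD for 11 of the 12. The slow troponin gene *Tnni1* averaged 9.84 (SD 3.67) and 10.87 (SD 1.43), with a 95% interval of the difference from -4.10 to 2.04. The slow myosin gene *Myh7* averaged 11.67 (SD 3.26) and 12.40 (SD 1.30), with an interval from -3.47 to 2.01 (adjusted p = 0.883). For both, the interval reached beyond a 2-fold change in either direction, so a change of that size was not detectable with 4 arrays a group. *Myoz2*, which encodes a Z-disc protein that binds calcineurin, was the only one of the 12 called by the 2-fold rule (0.86% of all probe sets were called higher by it). It rose from 16.23 (SD 0.52) to 17.37 (SD 0.70), a difference of 1.14 (SE 0.341, adjusted p = 0.200). *Mybpc1*, a myosin-binding protein gene named here after its values were seen, was the other slow fibre gene with an unadjusted p under 0.05. It averaged 17.88 (SD 0.42) and 17.04 (SD 0.34), a difference of 0.84 (SE 0.238, 95% interval 0.32 to 1.36, adjusted p = 0.179), with intervals of average ± 1 SD that did not overlap.

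*Maf* averaged 10.59 (SD 0.28) in MYTHO-KD and 11.11 (SD 0.11) in scramble. The intervals of average ± 1 SD, 10.31 to 10.87 and 11.00 to 11.22, did not overlap, a separation downward that 3.96% of all probe sets had. The signal was 30.3% below that of scramble, a log2 difference of -0.52 (SE 0.177, 95% interval -0.91 to -0.13, unadjusted p = 0.0126, adjusted p = 0.265). *Maf* was thus among the genes with little spread (pooled SD at the 22.6th percentile) and did not pass either rule. Its interval excluded a 2-fold decrease. The probe set was annotated to 115682942 to 115707794 on the minus strand of chromosome 8.

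Relatives of *Maf* differed within the spread. *Mafa*, another large MAF gene, averaged 4.48 (SD 0.34) and 4.27 (SD 0.11), a difference of 0.21 (adjusted p = 0.732). The small MAF gene *Mafg* averaged 7.57 (SD 0.35) and 7.38 (SD 0.52), a difference of 0.19 (adjusted p = 0.841). Of 5 MAF relatives 3 were higher and 2 lower, with a median difference of 0.16 and none called.

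*Maf* is expressed in macrophages as well as in fibres, and most macrophage markers averaged higher in MYTHO-KD. Of 10 markers, 9 were higher and 3 rose by the 2-fold rule (0.86% of all probe sets did), with a median difference of 0.57 and a summed log2 signal of 12.30 in MYTHO-KD and 11.13 in scramble. All 10 were listed as expressed in both groups, as were 21222 of all 22206 probe sets. The lysosomal protein gene *Cd68* rose from 6.90 to 9.43 (adjusted p = 0.0182), the lysozyme gene *Lyz2* from 9.17 to 11.11 (adjusted p = 0.0277) and the complement gene *C1qb* from 6.43 to 7.70 (adjusted p = 0.0754). *Ptprc* was the 1 marker that averaged lower, at 7.67 in MYTHO-KD and 7.69 in scramble (-0.02, adjusted p = 0.984). *Adgre1* averaged 7.09 in MYTHO-KD and 6.61 in scramble (0.48, adjusted p = 0.432) and was not called. The part of macrophages in the signal of *Maf* was not tested.

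Genes listed for fast fibres, among them the IIB fibres in which large MAF proteins are known to act, showed no called change. The list is not restricted to IIB fibres, and a change of the IIB myosin gene *Myh4* cannot be read here. Of 11 such genes, *Myh4*, *Myl1* and *Atp2a1* were at the end of the scale in both groups. Of the other 8, 7 were lower and 1 was higher, and the median over the 11 was -0.06. *Mybpc2*, the fast myosin-binding protein gene, had the largest difference, at 16.68 (SD 0.58) against 17.18 (SD 0.19), which is -0.50 (95% interval -1.07 to 0.07, adjusted p = 0.476). *Casq1*, the calcium-binding protein gene of the fast sarcoplasmic reticulum, averaged 18.71 and 18.98 (adjusted p = 0.587). The myosin genes of IIX and IIA fibres averaged higher without passing the 2-fold rule. *Myh1* averaged 18.17 (SD 0.28) and 17.58 (SD 0.21), a difference of 0.59 (SE 0.188, adjusted p = 0.230). *Myh2* averaged 19.91 (SD 0.01) and 19.50 (SD 0.16), a difference of 0.41 (SE 0.152, adjusted p = 0.315), and the MYTHO-KD average stood close to the end of the scale, above which no rise can be measured. The paper reports the opposite direction for *Myh2* in another muscle, the tibialis anterior. There quantitative PCR gave lower values at each time measured after the knockdown. By immunolabelling of that muscle, the paper also reports a smaller proportion of type IIA fibres and a larger one of type IIB fibres. The reason for the difference in *Myh2* was not tested. Myosin heavy chain genes are similar in sequence, and whether their probe sets read each other's transcripts was not tested.

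**Figure D4:**
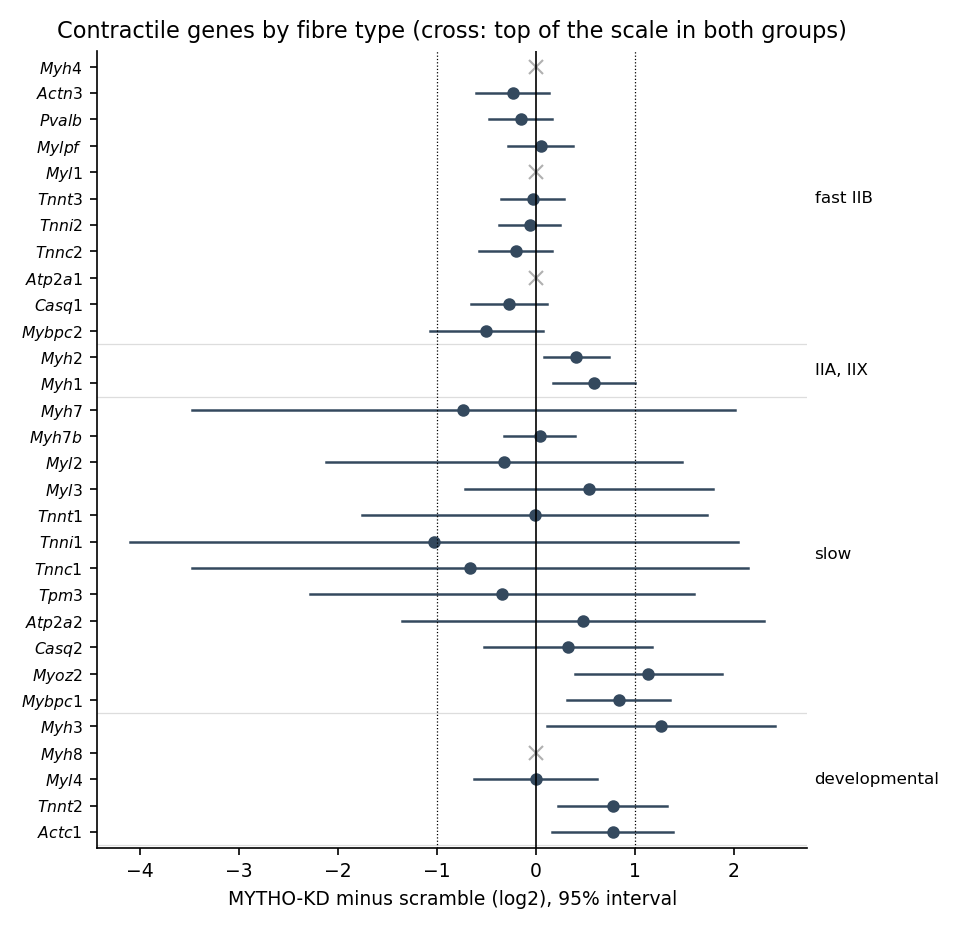
Log2 difference of MYTHO-KD minus scramble with its 95% interval (horizontal axis) for sarcomere and calcium-handling genes grouped by listed fibre type. Crosses are genes at the end of the scale in both groups and dotted lines mark 2-fold. The slow genes include the widest intervals, down to -4.10 for *Tnni1*. Those of the genes listed as fast IIB, which are not restricted to IIB fibres, lie between -1.07 and 0.38. The uncrossed fast genes *Tnnt3*, *Mylpf* and *Tnni2* averaged between 19.52 and 19.73 in both groups. That is close to the end of the scale at 19.93, which limits the rise and spread they can show.

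Other regulators of the oxidative and slow programme and of myogenesis held no called gene. Among 15 oxidative and slow programme regulators, 9 were higher and 6 lower, with a median difference of 0.09. *Esrrg*, a nuclear receptor of oxidative metabolism, averaged 9.33 (SD 0.64) and 8.59 (SD 0.40), a difference of 0.74 (adjusted p = 0.357). The thyroid hormone receptor gene *Thra* averaged 10.75 and 10.21 (0.54, adjusted p = 0.240). Among 6 myogenic regulators, 2 were higher and 4 lower, with a median of -0.10. *Myod1*, which is more abundant in fast muscle, averaged 6.71 (SD 0.22) and 7.11 (SD 0.54), a difference of -0.40 (adjusted p = 0.577), and *Myf6*, the myogenic factor of mature fibres, averaged 12.66 and 12.95 (-0.29, adjusted p = 0.558).

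Over the 12 lists of relatives, programme regulators and fibre genes as a whole, 102 genes were measured, of which 2 rose and 1 fell by the 2-fold rule and 0 passed the adjusted p (16 had an unadjusted p under 0.05, 12 higher and 4 lower). Over all probe sets, 0.86% rose and 0.257% fell by the 2-fold rule, and 0.275% passed the adjusted p. At an unadjusted p under 0.05, 6.48% of all probe sets were higher and 5.52% lower (12% in either direction). Among the 30 family relatives, 14 were higher and 16 lower, with a median of -0.02. Of these 30, 0 passed the 2-fold rule or the adjusted p in the moderated limma test, and 3 had an unadjusted p under 0.05, namely *Dach1* and *Tead3* higher and *Tead2* lower. That count is near the share of 12% over all probe sets.

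Markers of other cells of the muscle were read as well, since the RNA came from muscle tissue and not from isolated fibres. Of 8 markers of fibro-adipogenic progenitors, the connective tissue cells of muscle, all were higher and 3 rose by the 2-fold rule (0.86% of all probe sets did): *Lum* by 1.49 (adjusted p = 0.0443), *Col3a1* by 1.43 (adjusted p = 0.102) and *Pi16* by 1.14 (adjusted p = 0.126). Their summed log2 signal was 17.19 in MYTHO-KD and 16.82 in scramble. All 7 markers of blood endothelium were higher, 0 of them called, with *Kdr* (0.75, adjusted p = 0.190) and *Eng* (0.64, adjusted p = 0.364) differing most and a summed signal of 14.49 and 14.01. The 8 fibre markers had a summed signal of 22.01 and 21.81, with none called. The 2 brightest of them, *Acta1* and *Myh4*, stood at the end of the scale in both groups. This sum therefore cannot show a change in those 2. The largest difference among the fibre markers was that of the myoglobin gene *Mb*, at 19.75 against 18.82 (0.93, adjusted p = 0.0754), and the next that of *Actn2* (0.64, adjusted p = 0.227). The MYTHO-KD average of *Mb* stood close to the end of the scale. The part of these shifts in the signals of *Tbx1*, *Vgll2* and the other 7 genes was not tested.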

How the data were processed

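RNA of 8 GAS muscles was hybridised to Clariom S Mouse arrays. Signals had been normalized by the authors in the Transcriptome Analysis Console (method SST-RMA), and per the labels the processing notes also name Affymetrix Expression Console, RMA and mm10. The deposited table gives, per probe set, the authors' average and SD of each group on the log2 scale and a flag for expression, with decimal commas. The kind of average is not given in the sources used here. The p-values take it as a plain mean, and the effect of another kind was not tested. The table's own fold changes, p-values and false discovery rates were not used, and 0 columns of single arrays were present. The calls are therefore not the study's own. By the 2-fold rule 191 probe sets were higher and 57 lower here, and the paper reports fewer genes in each direction. The sources give 4 muscles a group without tying arrays to animals, so p-values measure the spread between arrays, whose number limits the precision.

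With limma 3.58.1 in R 4.3.3, the variances of both groups were averaged with 6 residual degrees of freedom and moderated by squeezeVar (prior SD 0.284, prior degrees of freedom 5.85). Tests were two-sided and adjusted by Benjamini-Hochberg over 22206 probe sets, with no filter. A model of the single arrays, written into the plan, could not be fitted. Summed signals are the log2 of the sum of linear signals. The brightest probe sets weigh most in them, and heights are not comparable between probe sets. The 9 genes and all 20 lists, of which 8 are cell type markers, were chosen with earlier results of these data known. Besides the 9 genes, those named are each list's called genes, its 2 largest differences, every gene of lists of 3 or fewer, and *Mafa*, *Tead1*, *Vgll3*, *Myh4*, *Myh1*, *Myh2*, *Myh7* and the target. *Mybpc1*, *Adgre1*, *Ptprc* and *Fabp4* were added after their values were seen. Some genes of the lists are not reported here. Other genes are named only as members of a list or for their position on the scale. The alternatives changed the variance model, the filter on low signals, the probe sets per gene, the centring and the fold.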

Additional observations from a re-analysis of the deposited data

How the results depend on the processing

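Under each of the 7 alternatives of the test, most of which change the variance or the set of probe sets and leave the differences as they are, the 2-fold rule called *Tbx1* (p 1.28e-04 to 0.00772) and *Vgll2* (p 0.00228 to 0.0309) and no other of the 9. The adjusted p of *Tbx1*, with a difference of 2.68 in each, was 0.285 without moderation, 0.429 with unequal variances and 0.213 with the larger SD used for both groups, so that under each of these settings 0 of the 9 genes were higher after adjustment, and it ranged from 0.0455 to 0.429 over the alternatives. The target *D230025D16Rik*, at -2.31, likewise lost its adjusted call in these settings (0.173, 0.363 and 0.109, with a range from 0.0025 to 0.363). Lowering the fold to 1.5 with p under 0.05 called 1 gene lower, *Eya4*, in place of 0, and 2.25% of all probe sets. The unadjusted p of *Eya4* was above 0.05 without moderation (0.107), with unequal variances (0.112) and with the larger SD (0.0686). The count of related genes that rose by the 2-fold rule went from 2 to 1 without moderation, with a trend and robust fitting, with unequal variances and with the larger SD, *Myh3* being lost each time and *Myoz2* kept. The cause of these losses was not tested. No alternative of the single arrays could be run, so leaving out each replicate was not done, and the choice among probe sets did not apply because each gene had 1. No paired analysis was possible because the table holds group averages, although the paper puts the hairpins in opposite legs. Signals at the end of the scale, such as that of *Myh4*, limit what can be read for the fast genes.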

Other observations

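Factors that mark head or limb position, the other side of muscle identity from fibre type, held 1 gene called lower by the 2-fold rule. Over all probe sets, 0.257% were. Of 21 such genes, 8 were higher and 13 lower in MYTHO-KD, with a median difference of -0.14. The homeobox gene *Hoxd10*, which takes part in limb patterning, fell from 7.26 (SD 0.45) to 6.23 (SD 0.47), a difference of -1.03 (SE 0.271, moderated limma test, adjusted p = 0.153). *Meox1*, a homeobox gene of the somite, averaged 4.86 and 4.28 (0.58, adjusted p = 0.395).

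Most developmental sarcomere genes, which regenerating fibres express, averaged higher. Of 5 genes, 3 were higher and 2 had equal averages, and the median was 0.78. Of the latter, 1 was *Myh8*, at the end of the scale in both groups, so whether it changed cannot be read. Its level need not be that of *Myh8* RNA, as whether its probe set reads other myosin transcripts was not tested. By quantitative PCR in the tibialis anterior, the paper reports higher *Myh8* after the knockdown at various times. The embryonic myosin gene *Myh3* rose by the 2-fold rule, as 0.86% of all probe sets did, from 6.46 (SD 0.63) to 7.73 (SD 1.28), a difference of 1.27 (SE 0.527, unadjusted p = 0.0331, adjusted p = 0.366). This call was lost without moderation, with a trend and robust fitting, with unequal variances and with the larger SD, where the unadjusted p lay between 0.0597 and 0.143. *Tnnt2* (0.78, adjusted p = 0.234) and *Actc1* (0.78, adjusted p = 0.289) did not reach 2-fold.

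Markers of the remaining cell types held no called gene. Of 7 smooth muscle and pericyte markers 5 were higher (summed log2 signal 15.03 in MYTHO-KD and 14.97 in scramble), with *Cspg4* (0.27, adjusted p = 0.571) and *Myh11* (0.25, adjusted p = 0.633) differing most. Of 5 adipocyte markers 1 was higher (14.45 and 14.42), and *Adipoq* differed by -0.69 with SDs of 2.13 and 2.22 and *Lep* by -0.33 (adjusted p = 0.805). *Fabp4*, the 1 higher (14.42 and 14.38), made up most of the adipocyte sum. Of 5 Schwann cell markers 2 were higher (9.29 and 9.52), with *Mbp* at -0.42 (adjusted p = 0.672) and *Sox10* at -0.30 (adjusted p = 0.743).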
